A study of Drosophila melanogaster with 999 samples.

Results

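Glycolysis breaks glucose into pyruvate through a fixed series of enzymes, and lactate dehydrogenase can pass the electrons it frees on to pyruvate and so regenerate NAD+. The glycolytic enzyme genes described here are Hex-A, Pgi, Pfk, Tpi, Gapdh1, Pgk, Pglym78, Eno, PyK and ImpL3, 10 of the 7279 genes of the deposited count table, and they were selected on their symbols. The set was proposed with earlier results of the same cells known, in which Tpi and Pglym78 had led groups of cells in a clustering. The spread of these genes over cells and their co-variation are therefore given as descriptions. All 10 genes were found in the table, and all 10 were detected in at least 20% of the cells, the minimum that the 2556 genes used as background also met.

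The cells were embryonic motoneurons of Drosophila melanogaster from 1 pooled population, and each gave 1 library by SMART-Seq2, which reads full-length cDNA in plate wells without molecular identifiers. They were sorted from dissociated embryos of 19 to 20 h as RFP-positive, DAPI-negative and DRAQ5-positive, which selects intact nucleated cells. RFP was driven by OK371-GAL4, a line with a regulatory element of the vesicular glutamate transporter gene that is active in motoneurons and in a few glutamatergic neurons of the brain. Every cell had this genotype and age and received no treatment. The labels name no embryo or pool, so that the cells form 1 sample, and the 16 plates with 17 to 82 cells each are treated as batches of it. The labels do not say whether plates shared an embryo collection or a sort. No test was made over cells, and a range over plates is not a spread between known biological replicates.

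The enzymes fall into a preparatory phase, which spends ATP to split the sugar and ends in triose phosphates (Hex-A, Pgi, Pfk, Tpi). A payoff phase follows, which returns ATP and NADH (Gapdh1, Pgk, Pglym78, Eno, PyK). Adult Drosophila neurons are known to lean on glia, which break down sugar and hand over lactate and alanine, while phosphofructokinase is a well known point of control in many animals. In Drosophila embryos the glycolytic genes are switched on together in midembryogenesis through the oestrogen-related receptor ERR.

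A cell had between 100027 and 5834773 reads (median 340803) and a median of 1487 detected genes. Reads on 11 genes with rRNA in their symbol took a median of 38.7% of a cell's counts, with a range of 4.81% to 89.3%. The vesicular glutamate transporter gene VGlut was detected in 95.8% of the cells by gene counts and in 87.99% by estimated counts per transcript. The neuronal gene elav was detected in 90.6% by either. Of the defining genes of other cell types, at least 1 estimated read of the glial gene repo was present in 15 cells, of the muscle myosin gene Mhc in 3 and of the hemocyte gene Hml in 4. Other genes of these lists were more widespread, with the muscle transcription factor gene Mef2 in 42.2% of the cells, Act87E in 40 cells, Mlc1 in 37, srp in 88 and crq in 47. In all cells the glia list (9 of 9 genes with reads, from 0 to 304.3 summed normalized reads between the 5th and 95th percentile of cells) was carried mainly by nrv2, which was present in 64.3% of the cells. The summed muscle list (9 of 10 genes with reads, TpnC73F at 0) ranged from 0 to 148.4 reads over the same percentiles.

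Together the 10 genes took 1.43% of all reads. Their share of a single cell's reads had a median of 0.810% and quartiles of 0.274% and 2.10%, and it reached 9.36% in the highest cell and 0% in the lowest. The plate medians of this share ranged from 0.350% to 2.05%. Levels are compared between genes as TPM, a unit scaled by transcript length and to the same sum in every cell, and each value below is the median over all cells with its lower and upper quartile, followed by the lowest, the middle and the highest of the 16 plate medians. Positions are those of the Ensembl annotation (BDGP6.54). Detection means at least 1 read, and the 95% intervals on its share of cells are exact (Clopper-Pearson) and hold counting error alone, because PCR copies of a molecule are counted as separate reads.

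In the preparatory phase, Hex-A (FBgn0001186, chromosome X, 9585675 to 9589813), the hexokinase that traps glucose as glucose-6-phosphate, had a median of 551.4 TPM (236.9 to 905.6), with plate medians of 260.7, 575.1 and 842.7 TPM. It was detected in 96.4% of the cells (95.05 to 97.5), the highest share of the 10 genes. Pgi (FBgn0003074, chromosome 2R, 8910900 to 8914069) encodes the isomerase that turns glucose-6-phosphate into fructose-6-phosphate, and it stood at 446.4 TPM (18.01 to 1040.6), with plate medians of 188.8, 478.8 and 914.9 TPM. Pgi was detected in 80.3% of the cells (77.7 to 82.7). Phosphofructokinase, the enzyme of the first step that commits the sugar to glycolysis, is encoded by Pfk (FBgn0003071, chromosome 2R, 10109740 to 10117457). Pfk had the lowest level of the set, 146.02 TPM (5.31 to 363.9), with plate medians of 65.4, 160.7 and 261.3 TPM, and was detected in 77.9% of the cells (75.2 to 80.4).

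At the end of the preparatory phase, Tpi (FBgn0086355, chromosome 3R, 30132981 to 30134599) makes both triose phosphates available to the lower pathway. Its median was 1876 TPM (79.3 to 5342.5), with plate medians of 630.5, 2027 and 5009.9 TPM, and it was detected in 87.1% of the cells (84.8 to 89.1). Gapdh1 (FBgn0001091, chromosome 2R, 7791901 to 7793380), which encodes the dehydrogenase that yields NADH, had 1717 TPM (150.9 to 4941), with plate medians of 501.2, 2050.3 and 4136 TPM, and was detected in 86.8% of the cells (84.5 to 88.8). The ATP-forming phosphoglycerate kinase gene Pgk (FBgn0250906, chromosome 2L, 2746880 to 2753068) was lower, at 542.9 TPM (9.60 to 1686), with plate medians of 80.3, 652.6 and 1515 TPM and detection in 78.5% of the cells (75.8 to 80.99).

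Pglym78 (FBgn0014869, chromosome 3R, 29148248 to 29149901) encodes phosphoglycerate mutase and had the highest median of the set, 1935 TPM (64.5 to 5760.2), with plate medians of 669.7, 2108 and 4982 TPM. It was nevertheless detected in only 83.2% of the cells (80.7 to 85.5). Enolase, encoded by Eno (FBgn0000579, chromosome 2L, 1724768 to 1729636), stood at 1017 TPM (128.3 to 3238), with plate medians of 397.3, 1210.4 and 2137 TPM and detection in 92.9% of the cells (91.1 to 94.4). PyK (FBgn0267385, chromosome 3R, 22367536 to 22372746), the pyruvate kinase gene of the last ATP-forming step, had 292.8 TPM (2.35 to 880.5), with plate medians of 90.8, 328.9 and 623.7 TPM, and the lowest detection of the set, in 75.9% of the cells (73.1 to 78.5). The lactate dehydrogenase gene ImpL3 (FBgn0001258, chromosome 3L, 6259105 to 6262694), which the annotation names Ldh, had 1372 TPM (213.1 to 2926), with plate medians of 525.3, 1377 and 2391 TPM and detection in 90.3% of the cells (88.3 to 92.1).

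The order of the levels ran Pglym78, Tpi, Gapdh1, ImpL3, Eno, Hex-A, Pgk, Pgi, PyK, Pfk. Its upper neighbours did not differ beyond the plates. Pglym78 had the higher plate median than Tpi on 9 of the 16 plates, Tpi than Gapdh1 on 11, Gapdh1 than ImpL3 on 12 and ImpL3 than Eno on 10. Eno lay above Hex-A on 15 plates and PyK above Pfk on 15, so that these steps of the order held on nearly every plate. Hex-A lay above Pgk on only 6 plates, although its median over all cells was the higher one. Among 14001 annotated genes the median TPM of Pglym78 ranked 25th and that of Eno 53rd. Normalized counts per kilobase of mean transcript length kept the place of 8 of the 10 genes.

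**Figure D1:**
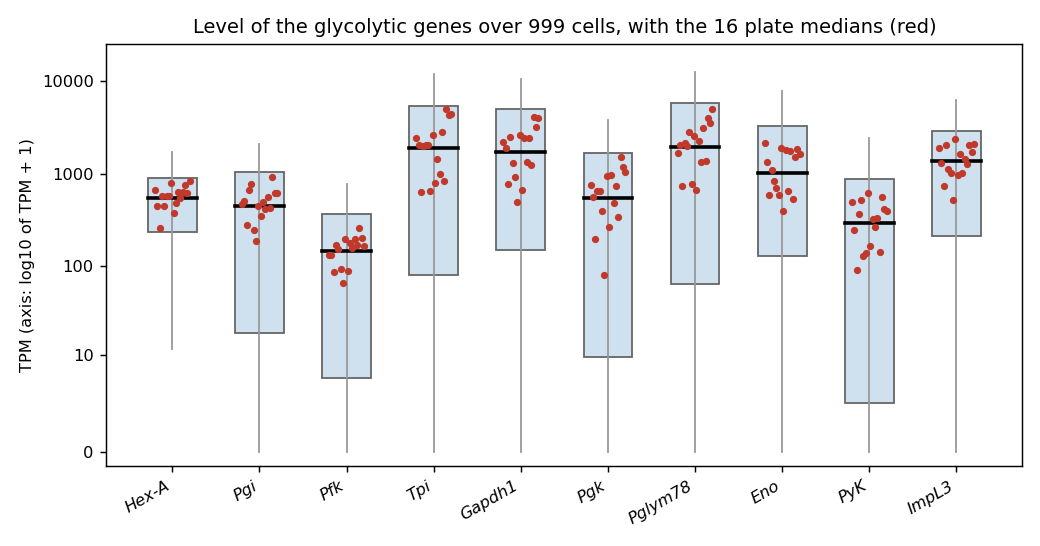
TPM of each gene over all cells on a log10(TPM + 1) axis, in pathway order. Boxes span the quartiles, the black line is the median, thin lines run from the 5th to the 95th percentile, and red points are the medians of the 16 plates. The box of Hex-A (236.9 to 905.6 TPM) is the narrowest, and that of PyK starts at 2.35 TPM.

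The genes were broadly on, with a tail of cells in which several were off together. All 10 genes were detected in 52.9% of the cells, 9 of them in 14.6%, and at least 8 in 76.8%, while 81 cells had fewer than 5 and 6 cells had none. The mean was 8.49 genes per cell, and the plate means ranged from 7.81 to 9.41. With at least 10 reads as the minimum, all 10 genes were present in 43.7% of the cells and none in 12 cells. After every cell was thinned at random to 50000 reads, those on rRNA genes included, all 10 were detected in 47.05% of the cells and the mean was 7.99.

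**Figure D2:**
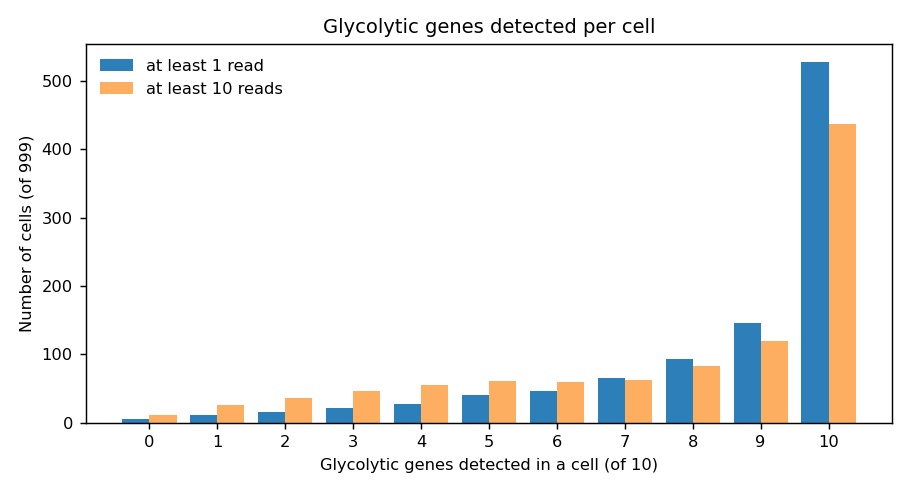
Number of cells in which 0 to 10 of the glycolytic genes were detected, with at least 1 read (blue) and with at least 10 reads (orange). The bar at 10 genes holds 52.9% of the cells at 1 read and 43.7% at 10 reads, and cells with none number 6 and 12.

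Hex-A and Eno were the last of the set to be lost. In the cells with 5 genes or fewer (12.1% of all), Hex-A was still detected in 98 and Eno in 72, against 14 for PyK, 23 for Pgi and 26 for Pglym78. Where only 1 gene was lacking, the missing one was Pfk in 46 cells, PyK in 35 and Pgi in 24. Tpi and Eno were each the missing gene in 3 of them, Hex-A and ImpL3 in 2. Values between the 2 minimums were uncommon for Hex-A, with 1 to 9 reads in 1.80% of the cells, and most common for Tpi, with 11.9%.

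Detection went together for every pair of genes. The log2 odds ratio of joint detection was above 0 for all 45 pairs, with a median of 3.21, and 3.11 after thinning to 50000 reads. The highest was that of Tpi with ImpL3, at 4.53, where ImpL3 was absent from 48.8% of the cells without Tpi and from 3.91% of the cells with Tpi. The lowest was that of Pgi with Pfk, at 2.23. These odds were not adjusted for plate, number of genes detected or rRNA share, and thinning evens out only the number of reads. Pairs of other genes were not taken as a background, so the odds do not show that joint detection is particular to the set.

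Given their mean, most of the genes varied more over cells than other genes did. The squared coefficient of variation (CV2) of normalized counts, which are counts divided by each cell's total relative to the median total, was set against a trend of CV2 on the mean over 3639 genes. Of the 10 genes, 7 lay above this trend, beside 18.9% of all genes in the fit. Pglym78 lay highest (log2 of CV2 over the trend 0.51), followed by Tpi (0.47) and Eno (0.43). Hex-A lay far below it (-0.99), at a CV2 of 0.724, and was the steadiest gene of the set. Pfk (-0.44) and Pgi (-0.18) were the other genes below the trend, while Tpi, also of the preparatory phase, lay above it. Of the genes in the fit, 48.5% lay lower than Pfk and 71.3% lower than Pgi. The height of the trend depended on the genes used, and with all genes in the fit the median of the 10 genes moved from 0.28 to -0.28. The totals used here include rRNA reads, whose share differed widely between cells. CV2 and its trend were not taken with rRNA genes left out of the totals, so the part of rRNA in this spread was not tested.

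Detection, too, was lower than the mean levels would give. Against the trend of detected share on the mean, 9 of the 10 genes were detected in fewer cells, beside 56.5% of all genes in the fit. The difference from the trend was -11.2 percentage points for Pglym78 (83.2% detected, 94.3% from the trend), -10.5 for Pgk and -10.01 for PyK. Only Hex-A was detected more often than its mean gave, by 4.33 points. The median difference was -7.74 points over the 10 genes and -1.31 points over all genes in the fit. This trend, too, was taken only with totals that include rRNA reads.

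Levels of the 10 genes moved together from cell to cell. Spearman's rho over all cells, a rank correlation, had a median of 0.67 over the 45 pairs. Because cells share plates and differ in total count and number of genes detected, ranks were also adjusted for these 3 measures, and rho was then between 0.29 and 0.80 with a median of 0.58. With size factors that left out rRNA genes and the 10 genes themselves it was between 0.17 and 0.78 with a median of 0.54. Over all pairs of the 2556 background genes the median adjusted rho was 0.0059. Of these pairs, 0.0907% reached the lowest value of the glycolytic pairs. The background pairs were not matched to the set on level or on detected share. The contrast therefore does not show how far the co-variation is particular to the set. On each of the 15 plates with at least 40 cells, the median over the glycolytic pairs lay between 0.48 and 0.68.

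The pairs did not covary equally. Tpi, Gapdh1, Pgk, Pglym78 and Eno, which act in succession, formed the tightest block, with an adjusted rho of 0.68 to 0.80 in its 10 pairs. The highest pair was Tpi with Pglym78. PyK and ImpL3 followed the block at 0.60 to 0.68. Pgi reached 0.61 with Gapdh1, and Pfk stayed between 0.35 and 0.51 with every other gene. Hex-A was the loosest, from 0.29 with Eno to 0.45 with ImpL3. On plate 15, which held 46 cells, 8 of the 9 pairs of Hex-A were not above 0, and no other pair of the set on any plate of this size was.

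**Figure D3:**
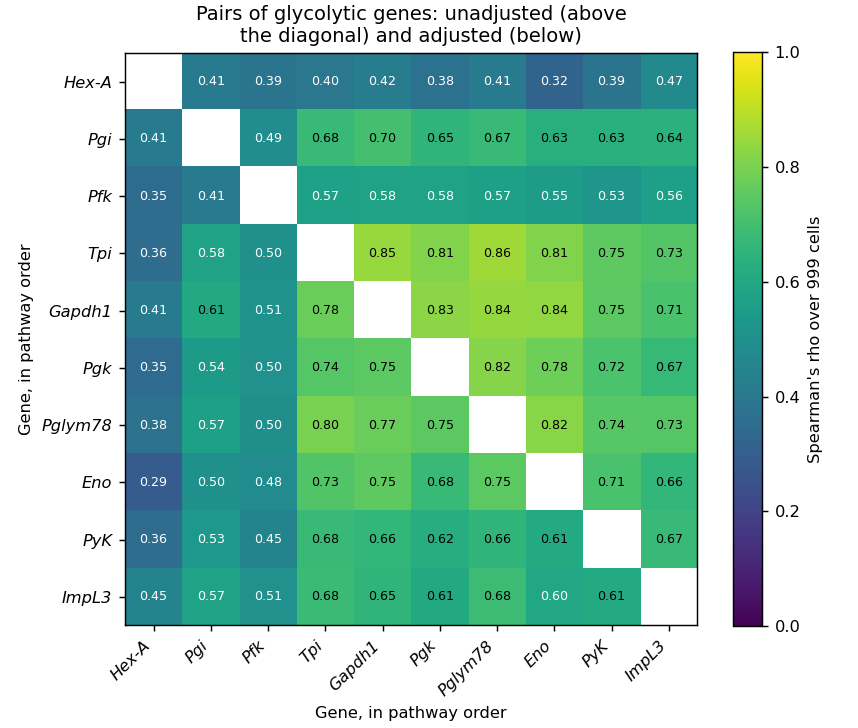
Spearman's rho over all cells for each pair of the 10 genes in pathway order, unadjusted above the diagonal and adjusted for plate, total count and genes detected below it. The block from Tpi to Eno holds adjusted values of 0.68 to 0.80, and the row and column of Hex-A hold the lowest ones.

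When each gene was compared with the mean log2 level of the other 9, adjusted rho was 0.84 for Gapdh1, 0.83 for Pglym78 and Tpi, and 0.78 for Pgk. It was 0.76 for ImpL3, 0.75 for Eno, 0.73 for PyK and 0.67 for Pgi. Pfk (0.58) and Hex-A (0.48) followed the rest least. For Pfk, Tpi, Gapdh1, Pgk, Pglym78, Eno and ImpL3 the most similar gene of the whole background was Ald, with 0.52 for Pfk and 0.83 for Tpi and Pglym78. The nearest gene was Gapdh1 for Pgi (0.61), Tpi for PyK (0.68) and ImpL3 for Hex-A (0.45).

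Outside the set, 2 genes of the same pathway were the most similar to the mean of the 10. Ald, the aldolase that splits the sugar, had an adjusted rho of 0.88 with it, and Gapdh2, the second glyceraldehyde-3-phosphate dehydrogenase, 0.82. The 3rd was GlyP (0.59), glycogen phosphorylase, which releases glucose units from glycogen. Then came the complexin gene cpx (0.58), CG7781 (0.56), the sodium pump subunit gene Atpalpha (0.55), the ATP synthase subunit gene ATPsynC (0.55), the proton pump subunit gene Vha13 (0.53), the synaptobrevin gene nSyb (0.52) and Drat (0.50). Of 2546 other genes, 89 (3.5%) reached 0.3. The lowest values were those of 18SrRNA-Psi:CR41602 (-0.45), pre-rRNA:CR45856 (-0.44), 18SrRNA-Psi:CR45861 (-0.41), Akap200 (-0.30), which encodes an anchoring protein of protein kinase A, and 28SrRNA-Psi:CR45862 (-0.29).

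Gapdh1 and Gapdh2 encode the same enzyme and have similar sequences, so that the assignment of reads between them is uncertain. In cells with at least 100 reads of both together (86.2% of the cells), Gapdh1 had a median of 24.4% of them (quartiles 12.3% and 33.5%). Gapdh2 had a median of 6439 TPM and was detected in 95.7% of the cells. In 80 cells Gapdh1 was at 0 beside at least 10 reads of Gapdh2, and the reverse was true of 4 cells. Their adjusted rho was 0.77. With the reads of both summed, the median rho with the other 9 genes was 0.68. Ald had 6195 TPM and was detected in 98.7% of the cells, more than any gene of the set.

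Apart from Gapdh2, the paralogs of the glycolytic enzymes were detected in few cells. Of the 13 other enzymes of glycolysis on the list used, only Ald, Gapdh2, CG7069 and Pfrx were in the count table. By estimated counts per transcript, the phosphoglycerate mutase gene Pglym87 had 5 reads in all cells and the hexokinase gene Hex-C 96 reads in 3 cells. The hexokinase genes Hex-t1 and Hex-t2 had 0 reads, which allows up to 0.3003% of the cells to hold a read, for counting error only and not for transcripts that were missed. The pyruvate kinase paralog CG7069 was detected in 55 cells and Pfrx, which makes and breaks down an activator of phosphofructokinase, in 130 cells. The gluconeogenic enzyme gene fbp had reads in 2 cells.

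Some genes for sugar supply followed the glycolytic genes. Of the 11 genes for sugar supply and stores, 5 were detected in at least 20% of the cells, and 4 of these had an adjusted rho of at least 0.3 (GlyP at 0.59, the phosphoglucomutase gene Pgm at 0.49, the glycogen synthase gene GlyS at 0.45 and UGP at 0.31). Of all non-member genes, 3.5% reached 0.3. The glucose transporter gene Glut1 was detected in 90.6% of the cells but had 0.16. The glycogen branching enzyme gene AGBE (50 cells) and the debranching enzyme gene CG9485 (12.2% of the cells) were too rare for a correlation. The trehalase gene Treh was found in 14.3% of the cells and the trehalose transporter gene Tret1-1 in 6.71%. None of the 5 measurable genes for NADH and carbon exits reached 0.3, with the aminotransferase gene Got1 at 0.26 and the glycerol phosphate shuttle gene Gpo-1 at 0.0026. Of 7 genes of the pentose phosphate pathway, 2 were in the table, both in under 20% of the cells, and estimated reads of Zw, its entry enzyme, were present in 2 cells.

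Mitochondrial genes were divided. All 18 genes of pyruvate dehydrogenase and the tricarboxylic acid cycle were measurable and their median adjusted rho was 0.14, with only Mdh2 (0.37) above 0.3. Among 14 genes of ATP synthase and cytochrome c oxidase, 13 reached 0.3 and the median was 0.36, while ATPsynB had 0.28. With size factors that left out rRNA genes and the 10 genes, 12 reached it. With the rRNA share in the adjustment, that median was 0.28, 5 of the 14 reached 0.3 and Mdh2 was at 0.299. The median over all non-member genes was 0.023. Of the known regulators, ERR was detected in 88 cells, too few for a correlation here, and sima, the hypoxia-inducible factor, in 97.4% with 0.13. Of 8 neuron markers 4 reached 0.3 (3 with those size factors). VGlut had 0.35, but 0.28 with those size factors and 0.21 with the rRNA share in the adjustment, and elav had -0.09. No heat shock or early response gene of the 6 measurable ones reached 0.3 in either direction.

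The relation of the set to library measures was strong for some and near 0 for others. The correlation of single genes with the total count (Spearman) lay between -0.08 for Hex-A and 0.14 for Eno. With the number of genes detected it ranged from 0.05 for Hex-A and 0.25 for Pfk to 0.51 for Gapdh1 and 0.57 for Eno. With the share of rRNA reads it was negative for all 10 genes, from -0.13 for Hex-A to -0.68 for Eno. When size factors left out rRNA genes and the 10 genes themselves, Hex-A turned to 0.22 and Eno was at -0.59, so that the direction held for the other 9 genes but not for Hex-A. With the number of genes detected, too, Hex-A changed sign under that scaling, to -0.12.

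Cells were ordered by each measure and divided into 5 groups of like size. Along the number of genes detected, a median of 0.616% of the reads outside rRNA genes fell on the 10 genes in the lowest group and 2.84% in the highest. After thinning, a mean of 5.87 genes was detected in the lowest group and 9.17 in the highest, against 6.84 and 9.33 without thinning. The thinned reads included those on rRNA genes, whose median share was 56.3% in the lowest group and 27.6% in the highest. Thinning thus did not even out the reads outside rRNA genes. Along the rRNA share the order was the reverse, with 3.22% of non-rRNA reads in the lowest group (at most 24.01% rRNA) and 0.691% in the highest (at least 59.5% rRNA). Along the total count the same share went from 1.49% to 1.94%. Between the lowest and the highest group by genes detected, the mean normalized count of Eno went from 204.9 to 1472 and that of Gapdh1 from 203.6 to 1369, while that of Hex-A was 387.2 and 389.6. The flat level of Hex-A depended on the scaling, since it went from 483.6 to 310.8 with the other size factors. The part of RNA quality, cell size or capture in these relations was not tested.

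**Figure D4:**
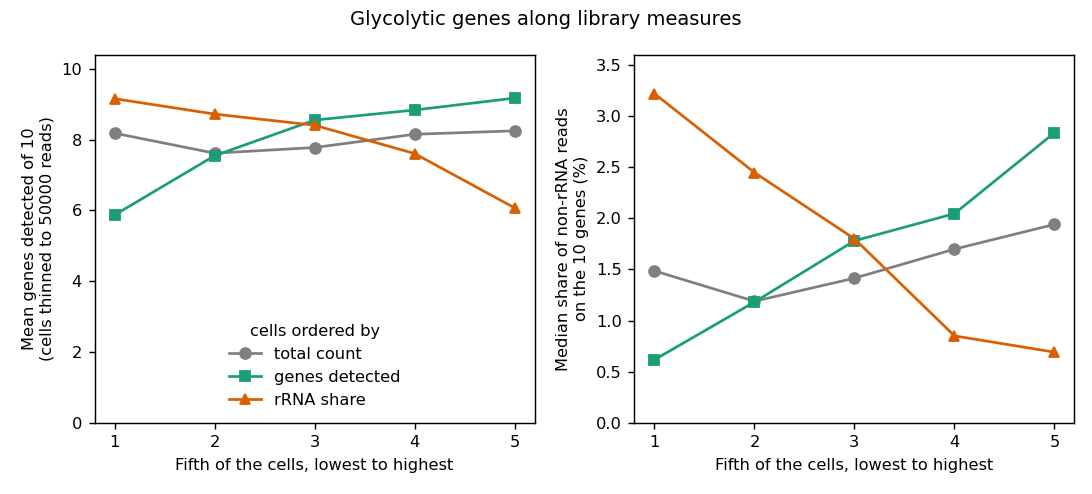
Left, mean number of the 10 genes detected after thinning to 50000 reads, and right, median share of non-rRNA reads on the 10 genes (%), in 5 groups of like size ordered by total count, genes detected or rRNA share. The thinned reads include those on rRNA genes, so that cells with more rRNA keep fewer other reads. The share reaches 3.22% in the cells with the least rRNA and 0.691% in those with the most, and changes least along the total count (1.49% to 1.94%).

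Cells with the motoneuron marker gene twit were compared with the rest because twit set apart 1 of the main clusters of these neurons in the study. At least 10 reads of twit were present in 19.6% of the cells, at least 10 of the vesicular monoamine transporter gene Vmat in 79, and the low-twit cells (73.4%) had fewer than 10 of both. A gene was counted as different where the mean normalized counts differed at least 1.5-fold, with no test. In the cells with twit, 3 of the 10 genes were lower by that rule, beside 36.7% of the background genes. Eno had a mean of 508.2 against 860.04 in low-twit cells (ratio 0.59), Pglym78 453.4 against 695.2 (0.65) and PyK 155.7 against 251.4 (0.62). Hex-A (488.8 against 429.6, ratio 1.14) and Pgi (317.2 against 281.3, ratio 1.13) were not lower. The share of the set was thus no higher than that of all genes, and the median log2 ratio of the 10 genes was -0.45 beside -0.38 for all genes.

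The rRNA share also differed between these groups. The median rRNA share was 49.2% in the cells with twit and 36.2% in the low-twit cells. With size factors that left out rRNA genes and the 10 genes, the median of all genes moved from -0.38 to -0.19, only Eno remained lower by 1.5-fold beside 26.4% of the background genes, and relative to the median of all genes the 10 genes were at -0.14, against -0.07 with the main size factors. In the cells with an rRNA share at or below the median (72 with twit), which were chosen after seeing the data, 0 of the 10 genes were lower beside 25.7% of the background, and their median log2 ratio was 0.0029. Within plates the median of the 10 genes was lower on 12 of 16 plates, and Eno was lower in the cells with twit on 15, Pglym78 on 14 and Hex-A on 4. The part of the rRNA share in the difference was not tested. Without plate 14 or without plate 17, 2 genes were lower in place of 3, and by the mean within plates 5 were. Neither kind of count has a background share beside it.

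In the 79 cells with Vmat, which loads monoamines into vesicles of modulatory neurons, none of the 10 genes was lower by 1.5-fold, beside 15% of the background genes. All 10 ratios were nevertheless below 1, from 0.71 for Gapdh1 to 0.94 for Hex-A, with a median log2 ratio of -0.29 beside -0.12 for all genes. The median was below 0 on 5 of the 6 plates with enough cells of both groups (at least 5). Leaving out plate 1 or plate 15 brought 1 gene past the limit. The count of none rested on pooling over plates, since by the mean of the log2 ratios within these 6 plates 8 of the 10 genes were past the limit (Pglym78 at -0.97, Gapdh1 and PyK at -0.79), with a median of -0.62. The counts within plates and without a plate have no background share beside them. The 15% belongs to the pooled cells, so whether 8 is many cannot be told. The rRNA share differed here as well, with a median of 41.1% for Vmat against 36.2% for low-twit. When only cells with an rRNA share at or below the median were kept (36 with Vmat), none of the 10 genes passed the limit. Their median log2 ratio was then -0.12 beside -0.027 for all genes, and the 10 genes ran from -0.32 to 0.053. Whether the rRNA share plays a part in the lower ratios was not tested.

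Cells were also compared by Hox class. Hox genes mark the segment of a neuron, with Dfd and Scr in the head, Antp in the thorax and Ubx, then abd-A, then Abd-B further back, and low-twit cells were classed by the most posterior one with at least 10 reads. Primers for Hox genes had been added to the reactions, so that Hox counts served only to class cells. Primers for lab were among them, but lab defined no class. The low-twit cells with no Hox read (20.9% of all cells) were the shared reference for 57 cells with Dfd or Scr, 45 with Antp, 74 with Ubx, 100 with abd-A and those with Abd-B (12.1%), so that these comparisons are not independent. They may include the brain neurons that the driver labels, and the share of these cannot be told apart from motoneurons whose Hox reads were missed.

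In the classes with Dfd or Scr and with Antp, no gene passed the limit in the pooled cells. Of the 10 genes, 0 were at least 1.5-fold higher in the cells with Dfd or Scr, beside 10.5% of the background genes, and 0 in those with Antp, beside 13.4%. The median log2 ratios were 0.014 and 0.32. With size factors that left out rRNA genes and the 10 genes, Pfk passed it for Antp (ratio 1.59). As the mean within plates the median log2 ratios were 0.39 for Dfd or Scr (higher on 4 of 4 plates) and 0.51 for Antp (higher on 1 of 2), and 1 and 4 of the 10 genes were then past the limit. Leaving out any of plates 6, 9, 12, 13 and 16 brought 1 or 2 genes past the limit for Antp. For the counts within plates and without a plate there is no background share.

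More genes passed the limit in the 3 posterior classes. In the cells with Ubx 7 genes were at least 1.5-fold higher beside 17.8% of the background genes, in those with abd-A 8 beside 15.7% and in those with Abd-B 7 beside 17%. The median log2 ratios of the 10 genes were 0.81, 0.99 and 0.82, and those of all genes were 0.10, 0.05 and 0.09. Pglym78 had a mean normalized count of 1148 in the cells with abd-A and 452.4 in the reference (ratio 2.54), Pfk 251.9 and 113.6 (2.22), PyK 383.9 and 173.8 (2.21) and Eno 1334 and 646.9 (2.06). The preparatory genes parted here, as Hex-A (1.44) and Pgi (1.45) stayed under the limit with abd-A while Pfk and Tpi passed it.

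Among the other comparisons, Tpi was 2.10-fold higher with Ubx and 2.02-fold with Abd-B, and PyK 2.08-fold and 2.09-fold. ImpL3 was 1.84-fold higher with abd-A but 1.35-fold with Ubx and 1.46-fold with Abd-B. In each of the 3 classes Hex-A and Pgi were under 1.5. The quartiles of single cells overlapped in spite of these ratios. The median normalized count of Tpi was 750.6 with abd-A (quartiles 143.02 and 1506) and 242.5 in the reference (12.5 and 695.2).

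The plates gave the same direction for abd-A and nearly so for Abd-B. Within plates that had at least 5 cells of both groups, the median ratio of the 10 genes was above 1 on 12 of 12 plates for abd-A, with a log2 ratio of 0.27 to 1.599, on 12 of 13 for Abd-B (-0.06 to 1.61) and on 7 of 9 for Ubx (-1.04 to 1.72). The means of these plate values were 0.94, 0.90 and 0.495, so that for Ubx the within-plate mean was under the limit (0.58 on this scale) and close to that of Antp. By that mean 2 of the 10 genes passed the limit for Ubx in place of 7, 9 for abd-A and 8 for Abd-B. These counts have no share of the background genes beside them, as the shares above are those of the pooled cells. Whether Ubx differed from Antp was not tested. Without any 1 plate the number of genes past the limit stayed between 6 and 8 for Ubx, 8 and 10 for abd-A and 7 and 8 for Abd-B, again without a background share. Of the other glycolytic enzymes, Ald was 1.79-fold and Gapdh2 1.87-fold higher for abd-A, while Pfrx (ratio 0.49) and CG7069 (ratio 0.60), both detected in few cells, were lower.

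Other measures moved with these classes as well. The median rRNA share was 38.7% in the reference and 33.3% with Ubx, 30.98% with abd-A and 32.8% with Abd-B. The summed neuron markers (8 of 8 genes with reads) had a median of 1525 normalized reads in the reference and 2513, 2592 and 2334 in the 3 classes, against 1769 with Dfd or Scr and 1954 with Antp. The number of genes detected was lower, with a median of 1517 in the reference and 1358 with abd-A. When only cells with an rRNA share at or below the median were kept, 8 genes were higher with Ubx beside 20.9% of the background genes, 8 with abd-A beside 16.3% and 7 with Abd-B beside 17%. The summed glia list had a median of 16.6 in the reference and 41.1, 24.8 and 38.8 in the 3 classes, the muscle list 5.42 and 0 in each of them, and the hemocyte and fat body list 0 throughout. The mean of the glia list was 70.9 in the reference and 106.1 with Ubx, 245.9 with abd-A and 99.4 with Abd-B. The means of the muscle list and of the hemocyte and fat body list were lower in each class than in the reference. The part of these markers in the differences was not tested.

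A direct comparison of abd-A with Antp, a thoracic class, rested on few cells. By the same limit 8 of the 10 genes were higher with abd-A beside 17.9% of the background genes, with a median log2 ratio of 0.64. With size factors that left out rRNA genes and the 10 genes, 5 were higher beside 16.1%, and with a low rRNA share 3 were higher beside 18%. Only 2 plates had enough cells of both classes, and their medians went in opposite directions (-0.02 and 0.85), with 3 genes past the limit by their mean. Without plate 16, which held 3 of the 45 cells with Antp, 2 genes passed the limit, and without plate 6 or plate 13 it was 5. Here, too, the counts within plates and without a plate have no background share.

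The low-twit cells with only 1 to 9 reads of a Hox gene (12.7% of all cells) were left out of the classes. Their median normalized counts were 117.4 for Tpi, 167.3 for Pglym78 and 229.9 for Hex-A, all under those of the reference (242.5, 257.5 and 268.2).

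**Figure D5:**
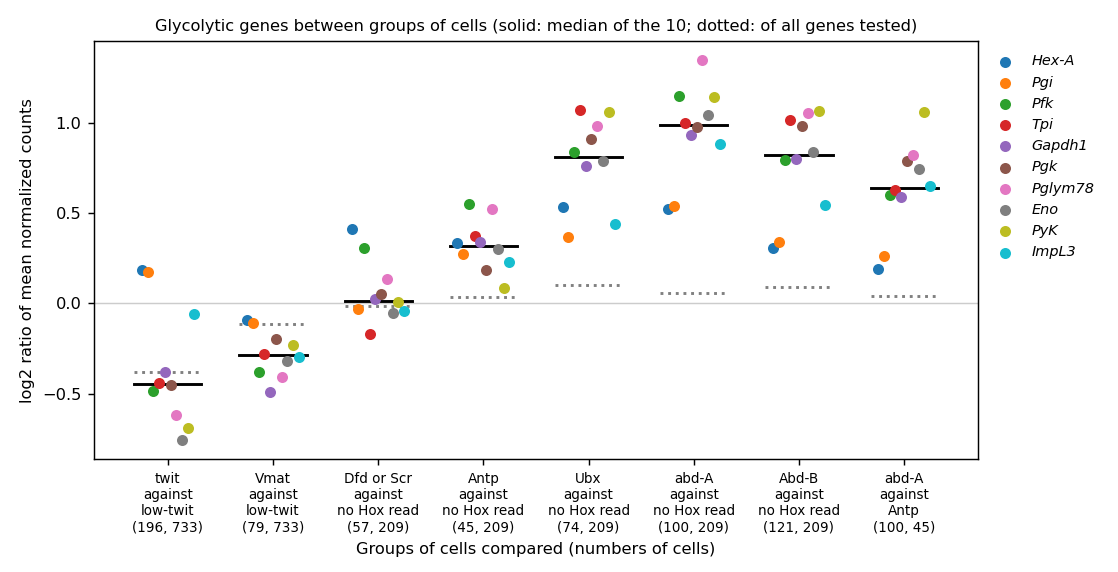
Log2 ratio of mean normalized counts of each of the 10 genes between groups of cells, with the compared groups and their numbers of cells under each column. Solid lines are the medians of the 10 genes and dotted lines those of all genes tested. The medians are -0.45 for twit, -0.29 for Vmat, 0.014 for Dfd or Scr, 0.32 for Antp and 0.81, 0.99 and 0.82 for Ubx, abd-A and Abd-B.

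Most of the genes were read from a few transcripts. For Hex-A 1 transcript of 4139 bases held 83.7% of the estimated reads, for PyK 1 of 1958 bases held 80.1% and for Pfk 1 of 3508 bases 77.3%. Transcripts were more mixed for Gapdh1, with 55.2% and 44.8% on 2 transcripts, and for Pglym78, with 47.5%, 41.6% and 10.9% on 3. The 2 shorter Hex-A transcripts had the same estimated counts (8.17% each), which such reads could not tell apart. The protocol does not mark strand, and in the annotation genes on the other strand overlap Eno (Rrp40), Pgk (Bacc, and Cwc25 by 65 bases) and Pglym78 (eIF2D, by 6 bases), so that reads there cannot be told apart by strand.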

How the data were processed

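Poly-A sequence was trimmed by the authors, and kallisto (0.43.0, listed with R 3.5.1 in the submitters' processing notes) placed each cell's reads on the BDGP6 cDNA set. The methods state minimums of 500 genes per cell and 5 cells per gene, both at 10 reads. Of the deposited cells 40, and of the genes 4, were below these. The deposited gene table holds estimated counts as integers without normalization for 7279 genes, and the authors also deposited per cell the estimated counts and the TPM of 30651 transcripts with their lengths, the length being a value of another kind that entered the counts per kilobase. For the 10 genes the summed estimated counts of their transcripts differed from the gene count by at most 0.5 reads in any cell. No column belonged to another sample.

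Counts were divided by size factors (total count over the median total), and log values are log2(normalized count + 1). The deposited TPM of a gene's transcripts were added up by the Ensembl annotation (release 115, BDGP6.54), which also gave the coordinates. Ranks were adjusted by a linear fit on plate, total count and number of genes detected. A gene counted as similar at an adjusted rho of 0.3, as different at a ratio of 1.5, and the within-plate values needed 5 cells in each group. Totals of 100027 to 5834773 reads and 999 cells set the precision. Ratios and adjusted correlations were tested on simulated data. The simulation built in no plate effect and no difference in rRNA share between cells, so it could not probe how these act on the values. Python 3.11.15, numpy 2.4.6, scipy 1.17.1, pandas 2.3.3 and matplotlib 3.10.9 were used.

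The genes of the set, the gene lists and the groups of cells were chosen with earlier results of these data known. The text names the set, the listed genes, the 10 genes most and the 5 least similar to the mean of the set among those in at least 20% of the cells, and for each gene of the set its most similar gene. Overlapping genes were named after their positions were seen. No doublet caller was run, since cells were sorted singly into wells. The alternatives are in the closing section. The muscle cells and images of the study were not analysed here.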

Additional observations from a re-analysis of the deposited data

How the results depend on the processing

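Among the alternative values other than those that leave out a plate, 50 stayed within the spread between plates, or for counts within 1.5 times, and 10 moved further. For the ratios this spread (SD over plates) was wide, from 0.40 for abd-A to 1.01 for Antp, so that staying within it says little. The twit median went from -0.45 to 0.0029 in cells with a low rRNA share and still stayed within its spread of 0.69. The mean number of genes detected per cell (8.49) became 7.68 with at least 10 reads, 7.99 after thinning to 50000 reads and 8.98 in cells with an rRNA share at or below the median, and the median share of cells (84.985%) became 74.5% and 78.4% under the first of these settings and the thinning. The median adjusted rho of the 45 pairs (0.58) was 0.67 with no adjustment and 0.65 in cells above the median number of genes. The median log2 of CV2 over its trend (0.28) became -0.28 with all genes in the trend. Mean in place of median TPM kept 6 places in the order of levels, and 6 of the 10 most similar genes were shared when the rRNA share was added to the adjustment.

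Leaving out each plate in turn gave 8.45 to 8.54 genes per cell, a share of 84.4% to 85.7%, a median rho of 0.57 to 0.59, and median log2 ratios of -0.49 to -0.38 for twit, -0.42 to -0.20 for Vmat, -0.19 to 0.11 for Dfd or Scr, 0.15 to 0.46 for Antp, 0.68 to 0.92 for Ubx, 0.92 to 1.06 for abd-A, 0.75 to 0.94 for Abd-B and 0.48 to 0.85 for abd-A against Antp. The cells with a low rRNA share, the rRNA share in the adjustment, the mean TPM and the other scaling of the most similar genes were chosen after seeing the data. The counts by the mean within plates and the list counts with the rRNA share in the adjustment were also added then. With the plate as a block (mean within plates) the median log2 ratios were -0.57 for twit, -0.62 for Vmat, 0.39 for Dfd or Scr, 0.51 for Antp, 0.495 for Ubx, 0.94 for abd-A, 0.90 for Abd-B and 0.41 for abd-A against Antp. A gene at 0 in a cell may have been missed at this depth, no embryo is labelled, and the plates are not labelled as biological replicates.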
